A study of Mus musculus with 5 samples.

Results

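The promoters of 6 synaptonemal complex genes (Sycp1, Sycp2, Sycp3, Syce1, Syce2 and Tex12) were compared between Pcgf6 ChIP DNA and input DNA of mouse ESCs. The genes were listed by name and chosen by their coverage within 2 kb of the transcription start site (TSS), scaled by the depth sum of each library and set against input, and they are 6 of 22359 protein-coding promoters. As that coverage is the measure the choice used, it is given here as a description and is not tested. The intervals given with it describe counting error and are not read as tests.

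The synaptonemal complex is a protein ladder that holds homologous chromosomes together along their length in meiotic prophase. SYCP2 and SYCP3 build the lateral elements along each chromosome axis, SYCP1 spans the gap as transverse filaments, and SYCE1, SYCE2 and TEX12 belong to the central element. The genes are known for expression in germ cells and are normally kept low in other cells, ESCs included. Pcgf6 is the Polycomb ring finger protein that defines a variant PRC1 complex, PRC1.6, in which the E-box binding pair Mga and Max, E2f6 and L3mbtl2 are known partners, and this complex is known for its presence at meiotic and other germ cell genes in ESCs.

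All 5 libraries came from CCE, a mouse ESC line, at passages under 15, grown with LIF and cross-linked with disuccinimidyl glutarate and paraformaldehyde, with no genetic change or drug named in the labels. There was 1 input library, taken without antibody, 2 repeats of ChIP with a Pcgf6 antibody from Santa Cruz and 2 repeats with a Pcgf6 antibody from Abcam. No Pcgf6-depleted cells and no control antibody were analysed here. The deposited coverage held 22813494 fragments in the input, 2290161 and 2300080 in the Santa Cruz repeats, and 2761667 and 2850508 in the Abcam repeats.

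The repeats held largely the same fragments. Of the Santa Cruz repeat 1 fragments 88.0%, and of the Abcam repeat 1 fragments 88.2%, lay at 1 of 2 fixed offsets from a fragment of repeat 2, whereas any other offset matched at most 0.344% and 0.355%. The repeats of an antibody were therefore joined and counted as 1 library, which left 2567627 Santa Cruz and 3165768 Abcam fragments against 22281796 of the input. The antibody libraries also shared positions. The Abcam library had a fragment at exactly the same position for 2.10% of the Santa Cruz fragments, against 0.246% to 0.323% at offsets with no excess, and the cause was not tested. The summed ratios, the ratios of single genes, the counts over both antibodies, the partner calls and the nearest promoters are also given below without these fragments.

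The sequences shown first are those to which the depth profiles and motif matches refer. The promoter windows run from 250 bases before to 50 bases after the TSS, on the coding strand of the NCBIM37 (mm9) genome with GENCODE M1 starts. Capitals mark the E-box CACGTG (the letters bound by Max-containing pairs), the E2F core TCCCGC or its reverse complement, and the T-box half-site AGGTGTGA. The promoters of Sycp1, Sycp3 and Tex12 are shown because each holds an E-box, and that of Syce1 because it reached the highest Santa Cruz ratio with none of these letters. For Sycp2 the window is the 300 bases around its highest pooled ChIP depth, which lies in the first intron and holds the E-box that its promoter window lacks. The windows around the highest depth of Sycp1, Syce1 and Tex12 held no E-box. Syce2, not shown, held none in either window.
Sycp1, chr3:102739974-102740273, minus strand: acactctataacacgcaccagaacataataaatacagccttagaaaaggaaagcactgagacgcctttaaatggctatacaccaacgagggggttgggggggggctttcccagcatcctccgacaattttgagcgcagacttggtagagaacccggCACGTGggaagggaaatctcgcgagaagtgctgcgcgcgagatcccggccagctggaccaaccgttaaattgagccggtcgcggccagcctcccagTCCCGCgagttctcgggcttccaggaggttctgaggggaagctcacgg
Sycp3, chr10:87922064-87922363, plus strand: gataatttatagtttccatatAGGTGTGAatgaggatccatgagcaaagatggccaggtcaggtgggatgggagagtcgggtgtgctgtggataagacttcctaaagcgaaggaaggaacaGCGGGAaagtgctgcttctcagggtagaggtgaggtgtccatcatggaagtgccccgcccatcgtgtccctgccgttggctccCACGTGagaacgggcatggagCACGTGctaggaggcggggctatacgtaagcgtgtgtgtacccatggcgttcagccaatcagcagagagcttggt
Tex12, chr9:50369324-50369623, minus strand: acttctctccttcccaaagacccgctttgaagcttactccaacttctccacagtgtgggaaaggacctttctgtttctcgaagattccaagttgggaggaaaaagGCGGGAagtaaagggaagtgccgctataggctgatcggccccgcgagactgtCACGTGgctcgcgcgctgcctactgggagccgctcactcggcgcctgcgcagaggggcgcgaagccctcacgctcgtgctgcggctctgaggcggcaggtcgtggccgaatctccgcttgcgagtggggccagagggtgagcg
Syce1, chr7:147973704-147974003, minus strand: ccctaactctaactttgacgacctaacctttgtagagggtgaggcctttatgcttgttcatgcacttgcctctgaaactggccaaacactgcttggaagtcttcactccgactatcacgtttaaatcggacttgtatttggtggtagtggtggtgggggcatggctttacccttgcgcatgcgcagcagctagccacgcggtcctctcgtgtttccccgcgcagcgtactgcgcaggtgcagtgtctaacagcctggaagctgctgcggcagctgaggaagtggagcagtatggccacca
Sycp2, first intron, chr2:178141742-178142041, minus strand: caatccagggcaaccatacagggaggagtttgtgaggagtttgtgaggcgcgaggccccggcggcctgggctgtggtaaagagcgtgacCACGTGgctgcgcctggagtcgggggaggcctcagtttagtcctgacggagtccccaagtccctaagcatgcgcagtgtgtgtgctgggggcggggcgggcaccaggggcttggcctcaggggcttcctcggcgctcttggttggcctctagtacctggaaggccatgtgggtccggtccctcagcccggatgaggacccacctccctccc

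Pcgf6 ChIP DNA was more abundant than input DNA at the 6 promoters together with both antibodies. Within 2 kb of the 6 TSSs there were 141 Santa Cruz fragments and 422 input fragments, a ChIP/input ratio of 2.90 after scaling to the library totals, with an exact Clopper-Pearson 95% interval of 2.38 to 3.52. The 150 Abcam fragments gave 2.50 (2.06 to 3.02). These intervals cover counting error only, and with 1 library for each antibody and 1 input there is no replicate check. For comparison, all 22359 promoters had a median of 0.898 for Santa Cruz and 0.943 for Abcam. Of these promoters 39.5% were above 1 with Santa Cruz and 43.4% with Abcam. The 6 synaptonemal complex promoters were above 1 with each antibody. The choice of the genes used this measure, so nothing is drawn from that count. The median of the 6 ratios was 3.81 with Santa Cruz and 2.32 with Abcam.

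The sum did not rest on a single gene. With each gene left out in turn, it stayed between 2.63 and 3.42 (Santa Cruz) and between 2.24 and 2.84 (Abcam). Of the fragments at the 6 promoters, 10 of the Santa Cruz and 9 of the Abcam fragments lay at a position, or 14 bp from a position, that the other antibody also held. That was 7.09% and 6.0% of the fragments at these promoters, against 3.56% and 2.89% of the whole libraries. Without all such fragments the summed ratios were 2.79 (2.28 to 3.41) and 2.42 (1.99 to 2.94). Syce1 held 0 such fragments, and without them the ratios of Sycp1, Sycp2, Syce1 and Tex12 lay between 3.54 and 4.50 (Santa Cruz) and between 2.20 and 4.95 (Abcam).

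The 6 promoters fell into those with ratios from 2.13 to 4.98, which were Sycp1, Sycp2, Syce1 and Tex12, and those with ratios from 1.51 to 1.76, which were Sycp3 and Syce2. A ratio of at least 2 with both antibodies was found at 4 of the 6, and 2.72% of all promoters reached it. Without the fragments at positions of both antibodies it was again 4 of the 6, and 2.50% of all promoters. As the genes were listed with this contrast known, nothing is drawn from these counts.

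**Figure D1:**
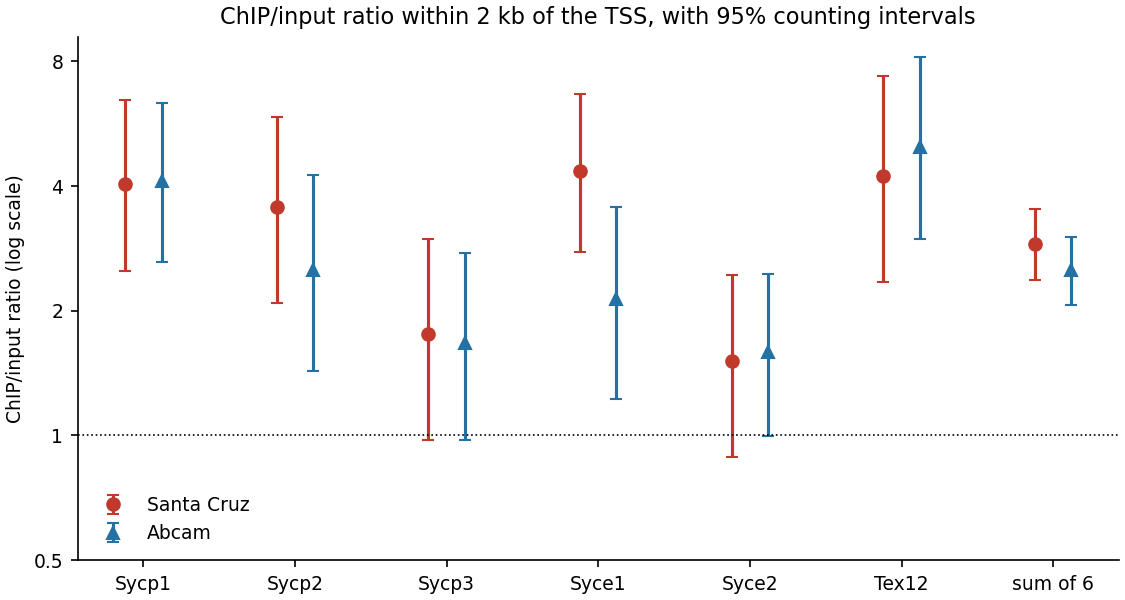
ChIP/input ratio within 2 kb of the TSS (log scale) for each gene and for their sum, with circles for Santa Cruz, triangles for Abcam and bars for the exact 95% counting interval. The intervals of Sycp1, Sycp2, Syce1 and Tex12 lie above 1 with both antibodies, those of Sycp3 and Syce2 reach below 1, and the sums stand at 2.90 and 2.50.

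Sycp1, the gene of the transverse filament protein, was high with both antibodies. It lies on chromosome 3 (102622422 to 102740023, minus strand, TSS at 102740023). As parts per 1000000 of the depth sum of each file (ppm), the depth within 2 kb of its TSS was 2.64 ppm in the input, 11.4 and 11.7 ppm in the Santa Cruz repeats, and 11.2 and 10.9 ppm in the Abcam repeats. All 4 ChIP files were thus far above the input, and the antibodies lay close together. Here and below, the repeats of an antibody hold largely the same fragments, so the 4 files are not 4 independent values. In fragments, 28 Santa Cruz, 35 Abcam and 60 input fragments gave ratios of 4.05 (2.49 to 6.44) and 4.11 (2.63 to 6.33). The annotation also has an internal start of Sycp1 at 102637717, with 0 Santa Cruz, 2 Abcam and 4 input fragments, too few to read a ratio.

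Sycp2 encodes a lateral element protein that binds SYCP3 and lies on chromosome 2 (178079998 to 178142390, minus strand). Its scaled depth was 2.48 ppm in the input, 8.73 and 9.13 ppm in the Santa Cruz repeats, and 6.52 and 7.02 ppm in the Abcam repeats. The 23 Santa Cruz, 20 Abcam and 56 input fragments gave ratios of 3.56 (2.09 to 5.89) and 2.51 (1.43 to 4.25). Both intervals stood above 1 and overlapped each other. A further annotated start of Sycp2, at 178142127, shares most of the same window and had 23 Santa Cruz, 19 Abcam and 54 input fragments.

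Sycp3, the gene of the main structural protein of the lateral elements, was lower. It lies on chromosome 10 (87922314 to 87935981, plus strand), and its scaled depth was 3.83 ppm in the input, 7.26 and 6.36 ppm in the Santa Cruz repeats, and 5.43 and 6.31 ppm in the Abcam repeats. All 4 ChIP files were above the input, by less than at Sycp1 and Sycp2. The 17 Santa Cruz, 20 Abcam and 84 input fragments gave ratios of 1.76 (0.977 to 2.98) and 1.68 (0.974 to 2.75). Over the whole window both intervals reached below 1. Sycp3 had the largest share of its Santa Cruz fragments at positions that Abcam also held, 3 of 17, and without such fragments its ratios were 1.5 (0.786 to 2.66) and 1.55 (0.878 to 2.61).

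Among the central element genes, Syce1, whose protein binds SYCP1, showed the widest gap between the antibodies. It lies on chromosome 7 (147963128 to 147973753, minus strand). Its scaled depth was 2.98 ppm in the input, 13.4 and 12.5 in the Santa Cruz repeats, and 6.16 and 5.96 in the Abcam repeats. The Santa Cruz files were the highest of all 6 genes here, while the Abcam files lay between them and the input. The 33 Santa Cruz, 20 Abcam and 66 input fragments gave ratios of 4.34 (2.77 to 6.69) and 2.13 (1.22 to 3.56). The Abcam ratio was 0.492 of the Santa Cruz ratio (0.267 to 0.882), the only one of the 6 whose interval did not include 1. Syce1 was singled out after its values were seen, and the difference was not tested. At the other 5 genes this quotient ran from 0.705 at Sycp2 to 1.18 at Tex12.

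Syce2, whose protein assembles with TEX12, lies on chromosome 8 (87396010 to 87412120, plus strand) and had the lowest ratios. Its scaled depth was 5.20 ppm in the input, 7.42 and 7.83 in the Santa Cruz repeats, and 7.76 and 8.49 in the Abcam repeats. The input was the highest of the 6 genes, and the ChIP files were above it by little. The 20 Santa Cruz, 26 Abcam and 115 input fragments gave ratios of 1.51 (0.889 to 2.44) and 1.59 (0.998 to 2.45). Over the whole window both intervals reached below 1. Without the positions held by both antibodies the values were 1.33 (0.749 to 2.22) and 1.45 (0.884 to 2.28).

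Tex12, the gene of SYCE2's partner in the central element, lies on chromosome 9 (50365253 to 50369373, minus strand) and had the highest Abcam ratio. Its scaled depth was 1.91 ppm in the input, the lowest of the 6, then 7.86 and 8.26 in the Santa Cruz repeats and 10.2 and 9.88 in the Abcam repeats. All 4 ChIP files were at more than 4 times the input. The 20 Santa Cruz, 29 Abcam and 41 input fragments gave ratios of 4.23 (2.35 to 7.39) and 4.98 (2.98 to 8.21).

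**Figure D2:**
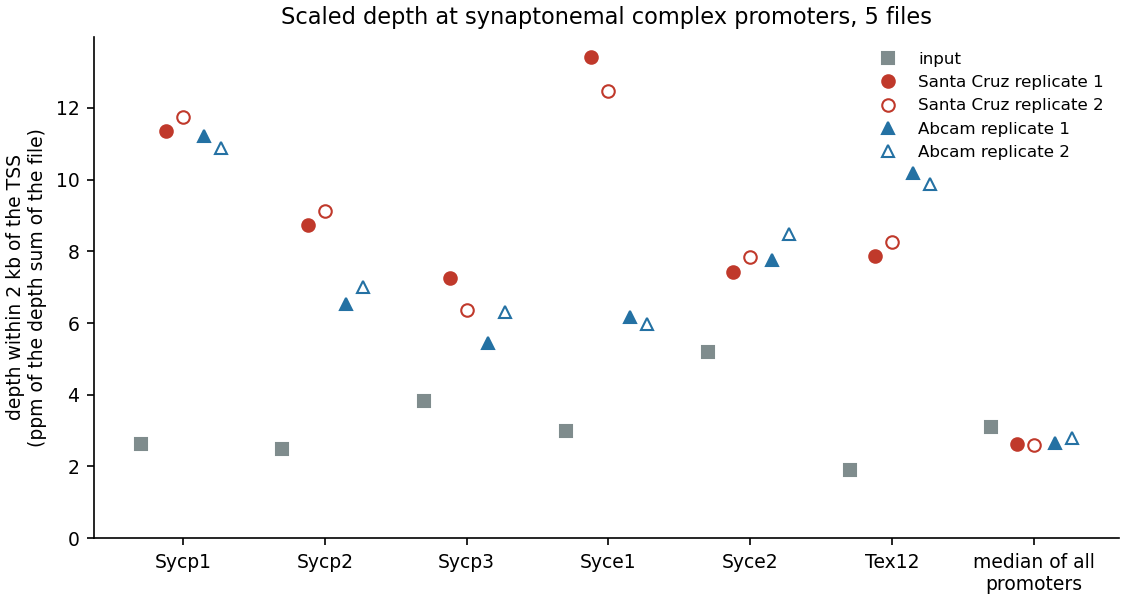
Depth within 2 kb of the TSS, in ppm of the depth sum of each file, in the input (squares), the Santa Cruz repeats (circles) and the Abcam repeats (triangles), with open symbols for repeat 2. Every ChIP point lies above the input point of its gene, while at the right the median of all promoters lies at 3.11 in the input and from 2.61 to 2.78 in the ChIP files.

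The order of the genes was not the same with each antibody. By ratio it ran Syce1, Tex12, Sycp1, Sycp2, Sycp3 and Syce2 with Santa Cruz, and Tex12, Sycp1, Sycp2, Syce1, Sycp3 and Syce2 with Abcam. Neighbours in both orders had overlapping intervals. With Santa Cruz, the upper bound of Syce2, 2.44, lay below the lower bounds of Sycp1 (2.49) and Syce1 (2.77). With Abcam, the upper bound of Syce2, 2.45, lay below the lower bounds of Sycp1 (2.63) and Tex12 (2.98), and that of Sycp3, 2.75, below that of Tex12. These bounds describe counting error on the measure the choice used. Differences between the genes were not tested, and nothing is drawn from bounds that do not overlap. The lateral and central element genes had overlapping intervals. The summed ratio of the lateral element genes Sycp2 and Sycp3 was 2.48 (1.70 to 3.55) for the Santa Cruz antibody and 2.01 (1.38 to 2.88) for the Abcam antibody, and that of the central element genes Syce1, Syce2 and Tex12 was 2.85 (2.16 to 3.73) and 2.38 (1.81 to 3.10).

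The fragments were not spread evenly over the windows. Within 500 bp of the TSS, a distance chosen after seeing the profiles, the summed ratio was 4.25 (3.28 to 5.47) for the Santa Cruz antibody and 3.70 (2.88 to 4.74) for the Abcam antibody. At Sycp3 the ratio near the TSS was 3.64 (1.75 to 7.16) for the Santa Cruz antibody and 3.41 (1.71 to 6.50) for the Abcam antibody, whereas the flanks from 500 bp to 2 kb gave 0.655 (0.172 to 1.78) and 0.664 (0.207 to 1.65). Of its fragments 76.5% of the Santa Cruz and 75.0% of the Abcam lay within 500 bp, against 36.9% of the input. The modest value of Sycp3 over 2 kb thus combined a higher centre with flanks whose ratios were below 1 and whose intervals included 1.

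Syce2 had the same shape with Santa Cruz, at 2.67 (1.27 to 5.21) near the TSS and 0.913 (0.381 to 1.89) in the flanks, and a weaker one with Abcam, at 2.17 (1.03 to 4.22) and 1.30 (0.677 to 2.31). Syce1 reached 6.64 (3.82 to 11.4) near the TSS for Santa Cruz and 3.31 (1.71 to 6.17) for Abcam, against 1.90 and 0.880 in the flanks. Tex12 reached 5.34 (2.68 to 10.3) and 7.04 (3.93 to 12.6), against 2.31 and 1.41 in flanks with few fragments. At Sycp1 and Sycp2 the flanks also held an excess, with 4.03 (1.92 to 8.04) and 3.27 (1.55 to 6.52) in the flanks of Sycp1 and 3.67 (1.64 to 7.69) and 2.71 (1.17 to 5.80) in those of Sycp2.

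**Figure D3:**
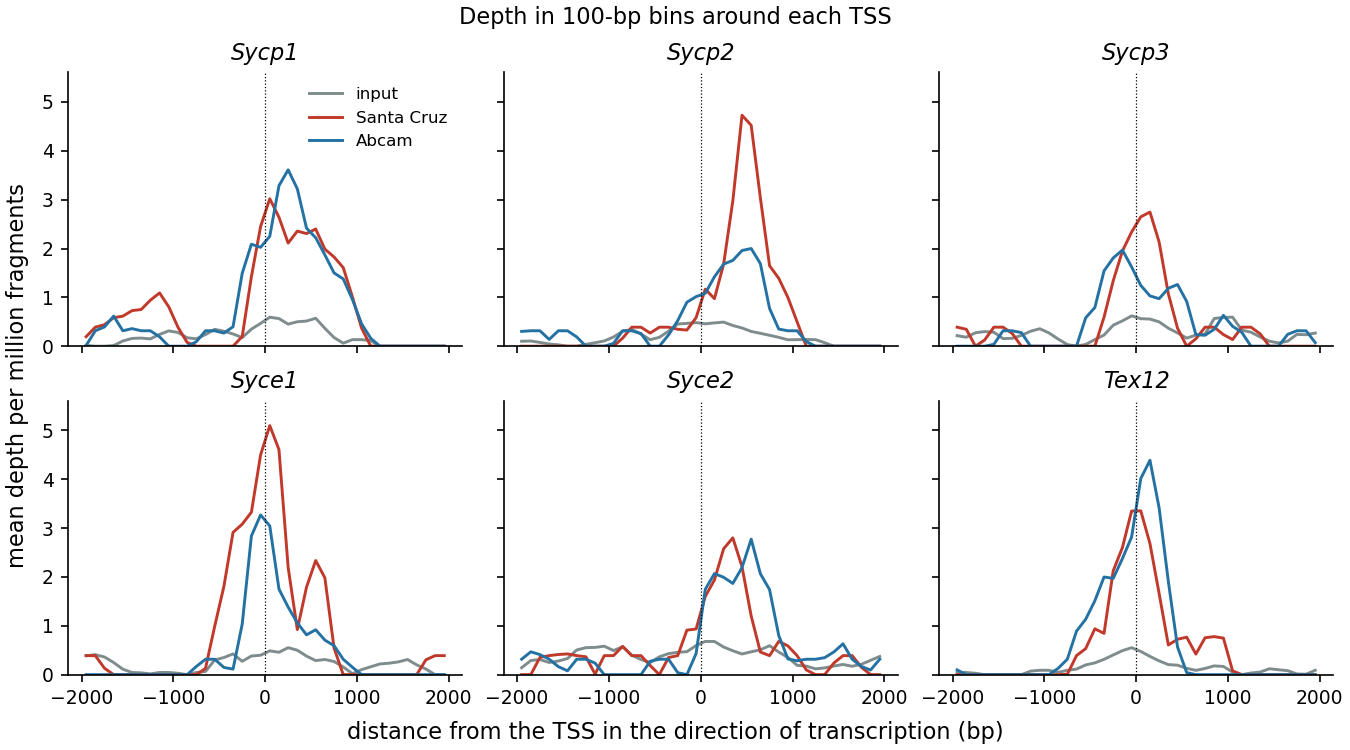
Mean depth, scaled to 1000000 fragments of the library, in bins of 100 bp, by distance from the TSS in the direction of transcription, for the input (grey), Santa Cruz (red) and Abcam (blue). Both antibodies rise above the input around each TSS, centred near it at Sycp3, Syce1 and Tex12 and shifted downstream at Sycp1, Sycp2 and Syce2.

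The highest depth lay downstream of the TSS with both antibodies at Sycp1, Sycp2 and Syce2. At Sycp2 it lay 493 bp downstream of the TSS with Santa Cruz (13 overlapping fragments) and 498 bp downstream with Abcam (7 fragments), within 5 bp of each other, in the first intron. At Tex12 it lay 19 bp upstream with Santa Cruz (10 fragments) and 106 bp downstream with Abcam (15 fragments). At Sycp3 it lay 5 bp and 156 bp upstream, and at Syce1 104 bp downstream, in a coding exon, with Santa Cruz and 36 bp upstream with Abcam. At Syce2 it lay 353 bp and 555 bp downstream, in both cases in exon sequence annotated as untranslated or non-coding in at least 1 transcript. At Sycp1 it lay 29 bp downstream in the first exon with Santa Cruz and 249 bp downstream in an intron with Abcam. These heights were 7 to 15 fragments, so the exact position carries a wide error.

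No other annotated gene starts within 2 kb of any of the 6 TSSs, so none of the windows holds the start of a second gene. The nearest protein-coding starts were those of Farsa, 4548 bp from Syce2, Bco2, 6087 bp from Tex12, and Ppp1r3d, 6787 bp from Sycp2. Those of Chpt1, Cyp2e1 and Nr1h5 lay 16871, 24009 and 28033 bp from Sycp3, Syce1 and Sycp1.

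The measure that the choice of genes did not use was their sequence. The motifs searched were nevertheless chosen with earlier results of these data known, and the shares over all promoters were not matched for CpG number. The E-box CACGTG was in the promoter windows of 3 of the 6 genes, at position -94 from the TSS in Sycp1, -93 in Tex12, and both -46 and -25 in Sycp3. It was in 7.70% of all promoters. The E2F core TCCCGC, on either strand, was in 4 of the 6 (Sycp1, Sycp3, Syce2 and Tex12) and in 24.7% of all promoters. The sequences printed above show both motifs in Sycp1, Sycp3 and Tex12, at nearly the same E-box position in Sycp1 and Tex12. With 6 genes these are counts and were not tested.

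The T-box half-site AGGTGTGA was in Sycp3 alone of the 6, at position -229, and in 1.13% of all promoters. The GC-rich letters CGNGGGCG were in Syce2 alone, at positions 9 and 29, and in 13.7% of all promoters. Neither of the windows of Sycp2 and Syce1 held any of the 4 motifs, and these were among the 4 genes with ratios above 2. In the 300 bases around the highest pooled ChIP depth, the E-box was in 2 of the 6 (Sycp2 and Sycp3) and in 6.66% of all promoters, and the E2F core was in 3 (Sycp1, Sycp3 and Syce2) and in 15.7%. CGNGGGCG was then in Sycp1 alone (6.98% of all) and AGGTGTGA in none (1.38% of all). A match of letters does not show that a factor bound there.

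The number of CpG dinucleotides in the promoter windows ranged from 10 in Sycp2 and 13 in Sycp3 to 21 in Sycp1 and 26 in Tex12, with 14 in Syce1 and 19 in Syce2. The median was 16.5 over the 6 and 12 over all promoters, and the median GC content was 57.8% and 55.3%. Tex12 and Sycp1, with the most CpGs, had the highest Abcam ratios (4.98 and 4.11) and Santa Cruz ratios of 4.23 and 4.05. By Abcam and then Santa Cruz ratio, Sycp2, with the fewest, had 2.51 and 3.56, and Syce2, with 19, had 1.59 and 1.51. Syce1, with 14, had 2.13 and 4.34, the highest Santa Cruz ratio, and Sycp3, with 13, had 1.68 and 1.76. A relation between CpG number and ratio was not tested.

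Other proteins of the chromosome axis and of synapsis were examined as a list of 30 partner genes, of which 29 were matched in the annotation (7 by an older symbol) and Spo16 was not. The list was chosen with earlier results of these data known, so the tests on these genes are no independent check. The 29 genes were tested by an exact binomial test of ChIP against input fragments, adjusted over all promoters by the Benjamini-Hochberg method with a threshold of 0.05. With Santa Cruz 4 of the 29 were higher than input (0.528% of all promoters) and 0 were lower (0.00894% of all), and with Abcam 5 were higher (0.953%) and 0 lower (0.0447%). At an unadjusted p under 0.05 the counts were 7 higher and 0 lower with Santa Cruz, and 8 higher and 1 lower with Abcam. The share of all promoters at that unadjusted threshold was not computed, so nothing is drawn from these counts. The 1 lower gene was Syce1l, a relative of Syce1 that was picked out after its values were seen. Its ratio was 0.188 (0.0223 to 0.702) with Abcam and 0.347 with Santa Cruz, where the interval reached above 1. Adjusted over all promoters, its exact binomial p was 0.255 with Abcam and 0.796 with Santa Cruz. Syce1l was thus called lower with neither antibody, and nothing is drawn from its ratios. The test compares 2 libraries and has no replicates behind it. The median ratio of the 29 was 1.31 with Santa Cruz and 1.29 with Abcam, against 0.898 and 0.943 over all promoters, and 3.81 and 2.32 at the 6 synaptonemal complex genes.

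The partners past the threshold with both antibodies, which 0.434% of all promoters passed, were the genes of 3 subunits of meiotic cohesin and of a crossover protein. Rad21l, the gene of a meiotic kleisin, had 18 Santa Cruz, 16 Abcam and 31 input fragments, with ratios of 5.04 (2.65 to 9.29, adjusted exact binomial p = 0.000659) and 3.63 (1.86 to 6.85, adjusted exact binomial p = 0.0272). Stag3, whose protein binds the meiotic kleisins, had 36, 38 and 100 fragments and ratios of 3.12 (2.07 to 4.62) and 2.67 (1.79 to 3.92). Smc1b, the meiotic form of a core cohesin subunit, had 21, 28 and 63 fragments and ratios of 2.89 (1.68 to 4.81) and 3.13 (1.93 to 4.96). Their ratios, from 2.67 to 5.04, overlapped those of Sycp1, Sycp2, Syce1 and Tex12.

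Msh4, whose protein stabilises crossover intermediates, had 26 Santa Cruz, 32 Abcam and 75 input fragments and ratios of 3.01 (1.85 to 4.76) and 3.0 (1.92 to 4.60). Hormad1, which encodes an axis protein with a HORMA domain, passed with Abcam at 3.77 (2.34 to 5.98, adjusted exact binomial p = 3.59e-05). With Santa Cruz its ratio was 2.48 (1.33 to 4.38, adjusted exact binomial p = 0.342), and the difference between the antibodies was not tested. By group, 3 of the 12 axis genes passed with Santa Cruz and 4 with Abcam, 1 of the 10 crossover genes with each, and 0 of the 7 genes of meiotic telomere attachment with either. Over all promoters 0.528% passed with Santa Cruz and 0.953% with Abcam, so 0 of 7 does not set the telomere genes apart. The summed ratio of the telomere genes was 1.22 (0.948 to 1.56) for the Santa Cruz antibody and 1.45 (1.17 to 1.78) for the Abcam antibody.

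Stag3 was called with both antibodies in every setting tried but the 10 kb window. With Abcam, Hormad1 and Msh4 were called in every setting, and Smc1b in all but the 10 kb window. The Santa Cruz calls other than Stag3, and Rad21l with Abcam, changed with more settings. With Santa Cruz, Smc1b was not called without repeat 1 (0.447% of all promoters called), in a window of 3 kb on each side (0.483%), at a threshold of 0.01 (0.389%) or without the positions held by both antibodies. In that last setting 87 of all promoters (0.389%) were higher with Santa Cruz, 172 (0.769%) with Abcam and 66 (0.295%) with both, and 3 partners passed with both, Rad21l, Stag3 and Msh4. Msh4 was not called with Santa Cruz without repeat 2 (0.452%). Rad21l was not called with either antibody within 1 kb (0.577% and 0.944%), nor with Abcam at a threshold of 0.01 (0.689%). Within 0.5 kb Santa Cruz called Hormad1, Stag3 and Smc1b but not Rad21l or Msh4 (0.461%), and Abcam called all but Rad21l (0.868%). Within 10 kb only Rad21l was called with Santa Cruz (0.434%), and Hormad1 and Msh4 with Abcam (0.796%).

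**Figure D4:**
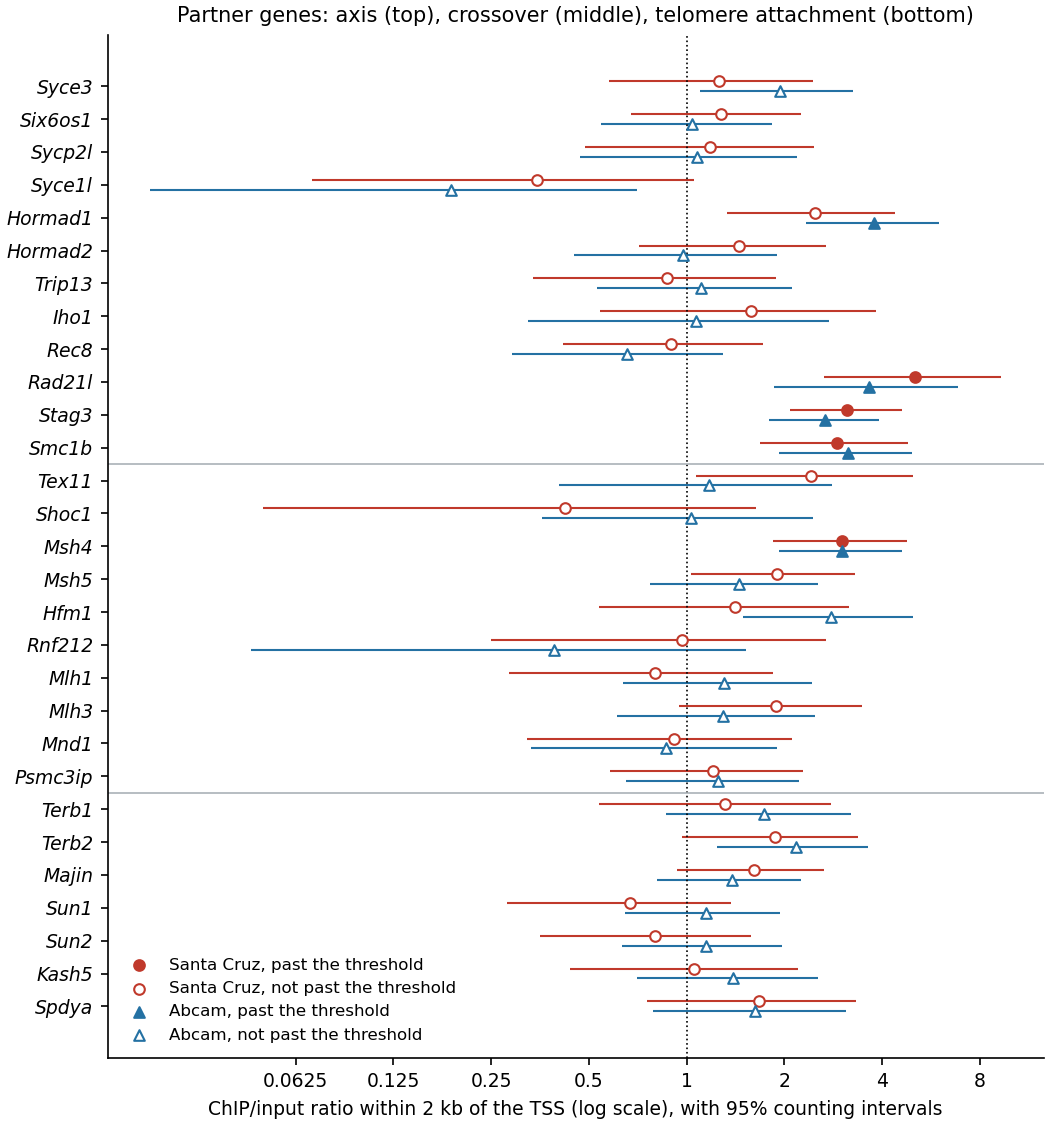
ChIP/input ratio within 2 kb of the TSS (log scale) of the 29 partner genes, with lines for the exact 95% counting interval, circles for Santa Cruz and triangles for Abcam, filled where the adjusted p is under 0.05. Rad21l, Stag3, Smc1b and Msh4 are filled with both antibodies, Hormad1 with Abcam, and none of the telomere genes at the bottom is filled. Over all promoters 0.528% passed with Santa Cruz and 0.953% with Abcam.

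The promoters of other genes whose pair of log2 ratios was nearest to the median pair of the 6, of 18045 promoters with at least 30 input fragments, were those of Pcmtd2, Tdrd1, Zpbp, Fam174b and A830073O21Rik. This likeness is a distance over 2 libraries. Without the positions held by both antibodies 4 of these 5 were again among the nearest 5, Pcmtd2 being the exception. Tdrd1, the gene of a Tudor protein of the germ cell piRNA pathway, had 29 Santa Cruz, 25 Abcam and 71 input fragments, with ratios of 3.54 and 2.48. Zpbp, which encodes an acrosomal protein of sperm, had ratios of 3.44 and 2.35, and Pcmtd2 had 3.47 and 2.25. Fam174b (3.39 and 2.40) and A830073O21Rik (3.30 and 2.41) start so close together that their windows share most fragments.

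**Figure D5:**
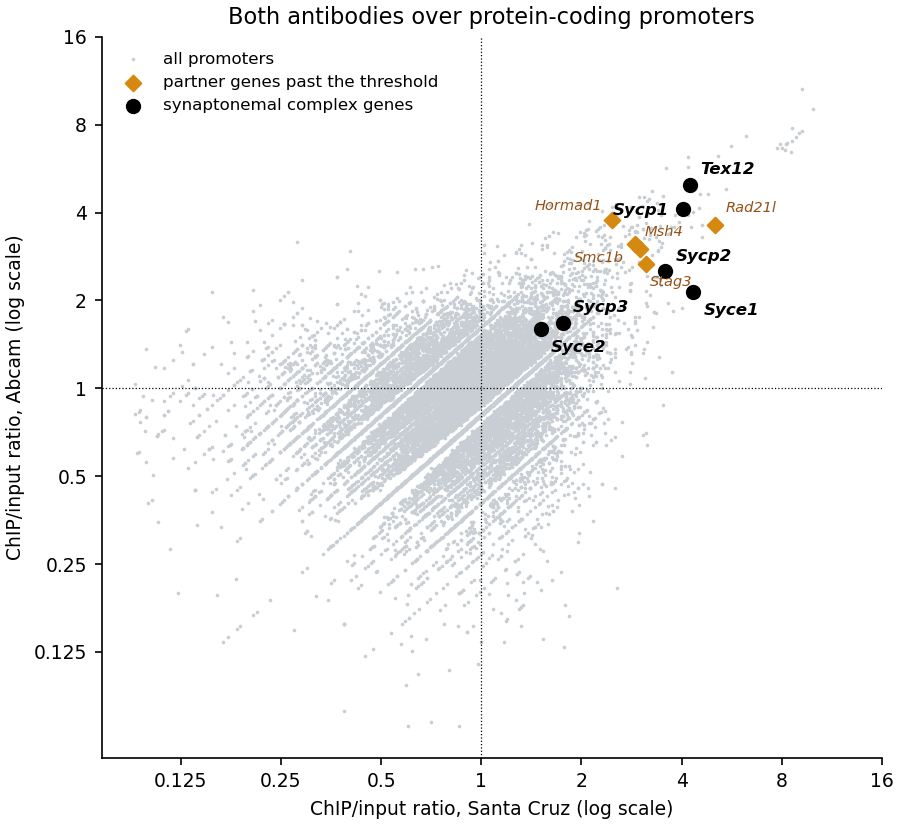
ChIP/input ratio with Santa Cruz against that with Abcam, on log scales, for 17991 of 22359 promoters with at least 30 input fragments and at least 1 fragment of each antibody (grey), the 6 synaptonemal complex genes (black) and the 5 partner genes past the threshold with either antibody (orange). Tex12, Sycp1, Sycp2 and Syce1 stand at the upper right edge of the cloud, beside the cohesin genes, and Sycp3 and Syce2 within it.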

How the data were processed

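The authors deposited, for each library, the genome-wide coverage signal of reads extended to 300 bp, as whole-number depths. Per the labels' processing notes the reads were aligned to mm9 with Bowtie 0.1.2.7, and further filters are not given in the sources used here. Fragments were recovered from the steps in depth (tested on simulated data), 1 fragment was kept per position, and the repeats of an antibody were joined. Step ends that found no start came to 0.408% of the input fragments and at most 0.0696% of the ChIP fragments, and fragments at a shared position to 2.33% of the input and at most 0.367% of the ChIP fragments.

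Fragments were assigned by their middle to the 2 kb on each side of the TSS that most protein-coding transcripts share (GENCODE M1, NCBIM37; the upstream one in a tie). The ratio is ChIP over input after scaling to library totals. Intervals are exact Clopper-Pearson at 95%. Partner promoters were tested by a two-sided exact binomial test (double the smaller tail), adjusted by the Benjamini-Hochberg method over all 22359 promoters. Tests measure counting error between libraries only, and reads amplified by PCR without molecular identifiers are not independent molecules. The ppm value is the deposited depth in the window over the depth sum of the file, times 1000000.

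The genes, the partner list and the motifs (CGNGGGCG was the consensus drawn by the study) were chosen with earlier results of these data known. Named genes were the 6, every partner past the threshold with either antibody, genes starting within 2 kb of the 6, and the 5 nearest promoters by log2 ratio. Alternatives were windows, scaling, starts, single repeats, all fragments as deposited, the deposited depth, an input filter of 20 fragments, a threshold of 0.01 and a one-sided test, and, added after seeing the data, a window of 0.5 kb and leaving out positions held by both antibodies. Counting and tests were run with scipy 1.17.1 and numba 0.67.0 under Python 3.11.15 (with pandas 2.3.3 and numpy 2.4.6), and figures were drawn with matplotlib 3.10.9.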

Additional observations from a re-analysis of the deposited data

How the results depend on the processing

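The summed ratio of the 6 genes stayed above 1 in all 22 recomputations and the single ratios in 131 of 132, the exception being Syce2 with Santa Cruz within 10 kb, at 0.980. These recomputations reuse the same libraries and the measure the choice used, so the tally is no independent check. The most upstream TSS gave the same values as the main setting. The width of the window moved the summed ratio most. It was 3.74 with Santa Cruz and 3.24 with Abcam within 1 kb, 4.25 and 3.70 within 0.5 kb (added after seeing the data), and 1.59 and 1.60 within 10 kb. Without either repeat it was 2.90 and 2.91 with Santa Cruz, and 2.46 and 2.55 with Abcam. Of the partners, 1 with Santa Cruz and 2 with Abcam were higher within 10 kb. With all fragments as deposited, most fragments are counted again in the second repeat. Over all promoters 396 (1.77%) were then higher with Santa Cruz and 588 (2.63%) with Abcam, against 118 and 213. Syce1l became 1 lower partner with Abcam in that setting. The share of all promoters called lower there was not computed, so nothing is drawn from that call. Leaving out a repeat gave 3 higher partners each time with Santa Cruz (0.447% and 0.452% of all promoters called) and 5 each time with Abcam (0.818% and 0.738%). Around the highest depth, 0 of the 6 genes held the T-box half-site. No paired analysis was possible because the repeats of an antibody hold the same fragments and the input has 1 library. Depth limits the single genes, with 17 to 35 ChIP fragments at each.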
